A study of Mus musculus with 4 samples.

Results

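The 104 genes described here are the long intergenic noncoding RNAs (lincRNAs) that cultured mouse peritoneal macrophages expressed. They were chosen by 3 entries of the deposited gene table, namely the biotype lincRNA, a position off chromosomes X and Y, and at least 100 reads summed over the 4 libraries. The table lists 4915 lincRNA genes off X and Y, so the 104 are 2.12% of them, against 49.3% of protein-coding genes that reach the same number of reads. Of the rest, 959 lincRNAs had 1 to 99 reads and 3852 had none. Summed reads chose the genes, so their levels are given as a description.

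The macrophages carried the WT genotype and, by the methods of the study, came from the peritoneum of BALB/c mice injected with thioglycollate broth, which draws macrophages into the cavity. They were cultured in normal medium (0% tumour medium) or with 30% 4T1-CM, that is, medium which 4T1 cells, a mouse mammary carcinoma line, had conditioned. Each medium was combined with the solvent DMSO (0 µM inhibitor) or with 10 µM CH223191, an antagonist of the aryl hydrocarbon receptor (AHR), a ligand-activated transcription factor. There was 1 library per combination, which leaves the spread from culture to culture unknown, and the time in 4T1-CM and the number of mice behind a library are not given in the sources used here. Where 4 values follow each other, normal medium comes before 4T1-CM and, within each medium, DMSO comes before CH223191.

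LincRNAs are transcribed and spliced like messenger RNAs but lie between protein-coding genes and are annotated as noncoding. Neat1 is the scaffold of paraspeckles, nuclear bodies that hold RNA-binding proteins, and Malat1 gathers in nuclear speckles beside splicing factors. Other lincRNAs act on a neighbouring gene, host small nucleolar RNAs (snoRNAs) or microRNAs (miRNAs) in their introns and exons, or bind proteins and miRNAs in the cytoplasm. In macrophages, several of them are known to be induced by inflammatory signals or by sterol-sensing receptors.

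The libraries held between 15535405 and 17557127 reads in genes. All 10 macrophage markers examined were detected, with a summed level of 14070 to 40178 CPM (reads per library size, scaled by TMM). Markers of T cells were at 0 in every library, and those of B cells, mesothelial cells and epithelial tumour cells summed to at most 1.17, 1.32 and 1.35 CPM. The 5 fibroblast markers summed to 57.3, 27.0, 145 and 123 CPM. The 6 neutrophil markers summed to 9.16, 13.8, 154 and 72.1 CPM, while Ly6g, S100a9 and Retnlg had no read in any library. Cyp1b1, a target of AHR, had 65, 19, 361 and 171 reads.

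Sequences are shown for 4 of the lincRNAs that were higher in both 4T1-CM libraries and for the miRNAs of a host gene that was lower there. The 4 promoters are RefSeq sequences of GRCm38.p6, each from 250 bases before to 50 bases after the RefSeq start of the gene, which lay within 500 bases of the start in the deposited table. Capitals mark the motifs that were searched on both strands. AW112010 lies on the minus strand (window chr19:11050517-11050816) and its capitals mark a kappaB motif, the element that NF-kB binds. AI427809, named Mexis by RefSeq, also lies on the minus strand (chr4:53270183-53270482) and held none of the motifs. In Gm34643 on the plus strand (chr14:103012625-103012924), the capitals mark an AP-1 motif (TGANTCA) that overlaps an AHR core (GCGTG) read from the other strand. In C030037D09Rik on the plus strand (chr11:88718393-88718692), they mark an E-box (CACGTG) and 3 AHR cores read from the other strand.
AW112010: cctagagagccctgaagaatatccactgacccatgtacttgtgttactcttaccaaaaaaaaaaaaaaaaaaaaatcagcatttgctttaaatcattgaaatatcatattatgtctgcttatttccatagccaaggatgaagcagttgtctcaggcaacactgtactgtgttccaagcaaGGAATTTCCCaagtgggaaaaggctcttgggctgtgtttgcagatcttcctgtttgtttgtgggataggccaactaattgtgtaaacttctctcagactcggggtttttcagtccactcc
Mexis: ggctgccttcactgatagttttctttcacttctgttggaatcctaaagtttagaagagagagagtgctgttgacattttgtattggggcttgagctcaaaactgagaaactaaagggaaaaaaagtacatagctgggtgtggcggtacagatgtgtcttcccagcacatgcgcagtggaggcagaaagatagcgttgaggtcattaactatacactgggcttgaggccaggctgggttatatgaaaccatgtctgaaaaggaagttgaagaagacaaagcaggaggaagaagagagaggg
Gm34643: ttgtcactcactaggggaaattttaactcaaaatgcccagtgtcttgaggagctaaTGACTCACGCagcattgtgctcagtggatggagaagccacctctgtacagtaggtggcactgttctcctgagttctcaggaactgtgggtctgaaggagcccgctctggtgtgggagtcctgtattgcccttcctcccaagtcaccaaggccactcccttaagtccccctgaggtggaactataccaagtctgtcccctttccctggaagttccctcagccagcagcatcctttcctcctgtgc
C030037D09Rik: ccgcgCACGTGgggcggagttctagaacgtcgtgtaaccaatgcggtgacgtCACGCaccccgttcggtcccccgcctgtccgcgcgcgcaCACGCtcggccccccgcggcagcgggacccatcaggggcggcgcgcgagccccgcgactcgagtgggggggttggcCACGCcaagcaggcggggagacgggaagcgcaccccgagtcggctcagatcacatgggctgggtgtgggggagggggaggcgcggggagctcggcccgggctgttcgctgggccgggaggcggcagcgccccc

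RefSeq promoters within 500 bases were available for 45 of the 104 genes. The AHR core stood in 10 of these 45 (22.2%) and in 32.2% of 27026 promoters of all genes. The E-box stood in 5 (11.1%, against 7.09%), the AP-1 motif in 3 (6.67%, against 7.91%), the kappaB motif in 2 (4.44%, against 4.36%) and the STAT motif TTCNNNGAA in 2 (4.44%, against 8.37%). The antioxidant response motif TGACNNNGC and the interferon response motif each stood in 1 (2.22%, against 12.4% and 3.52%). Of the lincRNAs at least 2-fold higher in both 4T1-CM comparisons, 8 had such a promoter. Among these 8, the AHR core, the E-box and the kappaB motif each stood in 2. The AP-1 and interferon response motifs each stood in 1, and the STAT and antioxidant motifs in 0. Of those not shown, Gm36161 held an interferon response motif and Gm38910 none. The others not shown, named after their values were seen, were Gm20735 with a kappaB motif and 5930430L01Rik with 2 E-boxes. A match describes the letters of the window and is not a measured binding site.

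A miRNA pairs with its target messenger RNAs through its seed, bases 2 to 8, which is printed in capitals. Mir142hg, a gene of 269 annotated exon bases on chromosome 11, holds the hairpin of miR-142, a miRNA of blood cells. Its mature forms lie on the plus strand of GRCm38.p6 at chr11:87756867-87756887 (miR-142a-5p) and chr11:87756903-87756925 (miR-142a-3p). Mature miRNAs were not measured in these libraries.
mmu-miR-142a-5p: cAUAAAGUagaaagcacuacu
mmu-miR-142a-3p: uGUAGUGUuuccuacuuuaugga

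The level of the lincRNAs was low and uneven. The median lincRNA had 194.5 reads over the 4 libraries, against 1903 for protein-coding genes past the same threshold, and 85 of the 104 had under 500. Per length, the median was 1.36 RPKM (reads scaled by gene length and library size), against 6.18 for protein-coding genes. Together the 104 genes took 0.196%, 0.227%, 0.158% and 0.204% of the reads of the 4 libraries. Neat1 and Malat1 alone held 46.9%, 58.5%, 42.8% and 51.1% of these lincRNA reads. At the threshold, C030037D09Rik had 103 reads, 4833445I07Rik 102, 4930555A03Rik and Gm37168 101 each and 4732487G21Rik 100, while just outside it A530013C23Rik and Gm16001 had 99, 4930589L23Rik 98 and A330074K22Rik and Gm42595 97.

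**Figure D1:**
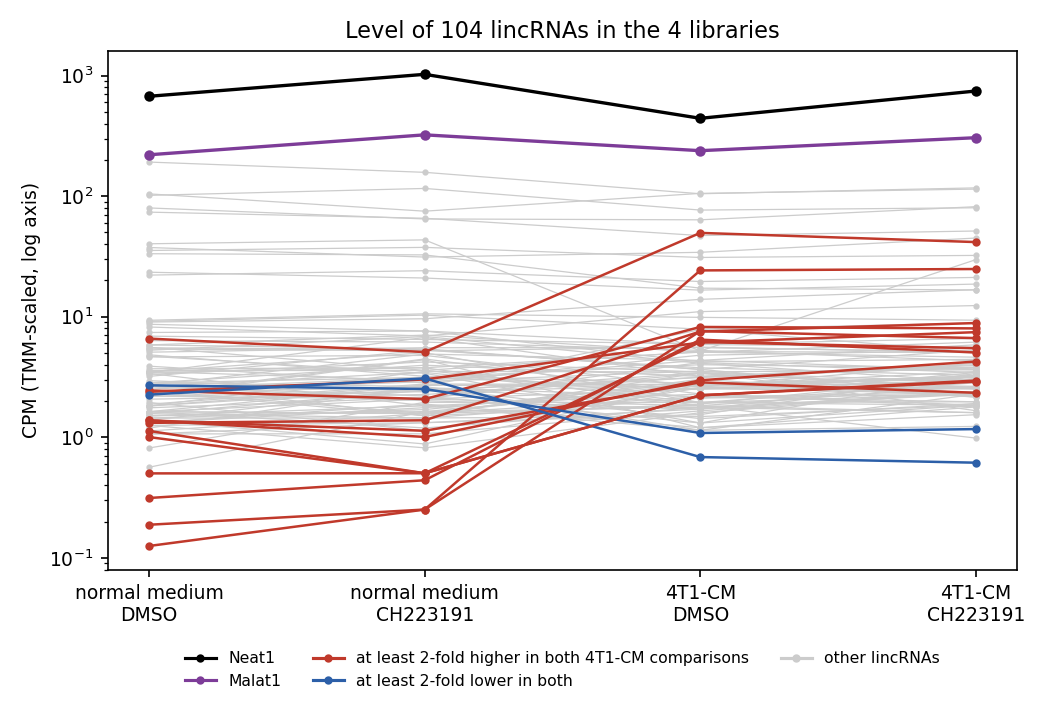
CPM of the 104 lincRNAs on a log axis in the 4 libraries, with a line joining the values of 1 gene and no error bar because each condition has 1 library. Neat1 (442 to 1025 CPM) and Malat1 lie above all others, and the red lines of 12 lincRNAs rise towards the 4T1-CM libraries while the 2 blue lines fall.

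Annotation limits what some of these values mean. By symbol or alias, 73 of the 104 matched a RefSeq entry, 63 of them a long noncoding RNA, 8 a protein-coding gene and 2 a pseudogene. An alias can point to another gene. Gm38399 was matched to Nav1, a gene that it overlaps, and 4732487G21Rik to Gpatch2l, which it overlaps on the other strand. The 8 protein-coding matches also include 1810058I24Rik, which encodes the mitochondrial micropeptide known as Stmp1 or Mm47, and Zfp469. The library kit does not mark strand, and 39 of the 104 overlap the span of a gene on the opposite strand. Exon bases were shared with another gene, on either strand, by 35 of the 104, and reads in shared bases cannot be told apart. By sequence, 14 of the 104 shared over 20% of their 50-base words with transcripts of another gene, among them Gm10076 (69.9%, most with Rpl41), Gm36161 (68.9%) and 2900097C17Rik, the gene of Norad (39.5%, most with its copy Gm7292).

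Among the most abundant lincRNAs, the nuclear Neat1 and Malat1 came first by reads. Neat1 (ENSMUSG00000092274, chr19:5824708-5845478 of GRCm38, minus strand) had 10741 reads in the DMSO culture and 16294 in the CH223191 culture of normal medium, and 7743 and 12102 in those of 4T1-CM. Malat1 (ENSMUSG00000092341, chr19:5795690-5802672, minus strand), its neighbour on the chromosome, had 3515, 5130, 4173 and 4962 reads. Per length the pair were closer, with 32.4, 49.3, 21.3 and 35.9 RPKM for Neat1 and 31.6, 46.2, 34.1 and 43.7 RPKM for Malat1. That closeness depends on the gene lengths used, 20771 bases for Neat1 and 6983 for Malat1. For both genes the CH223191 library was the higher one in either medium.

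Norad, a cytoplasmic lincRNA that binds Pumilio proteins, had 3057, 2507, 1833 and 1903 reads, highest in normal medium with DMSO. Oip5os1 (listed as 1700020I14Rik and also known as Cyrano), which directs the decay of a miRNA, had 1273, 1029, 1114 and 1329 reads. AU020206 had 1665, 1194, 1846 and 1859 reads, with its lowest library in normal medium with CH223191. Stmp1 had 1619, 1843, 1342 and 1301 reads, lower in both 4T1-CM libraries. Dubr had 598, 497, 599 and 730 reads, and Tmem250-ps 565, 598, 543 and 524. The other genes among the 10 highest by RPKM were Gm10076, Gm26917, Gm36161, AU022793 (353, 383, 343 and 344 reads) and Gm14461 (531, 518, 302 and 271). Gm26917, which holds ribosomal RNA sequence, had 1175, 1043, 825 and 835 reads, and 3 other such genes were listed at 0.

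The first question was which lincRNAs differed with 4T1-CM. A gene was called when its scaled level differed at least 2-fold between 2 libraries, and the interval printed after a ratio is a 95% Clopper-Pearson (exact) interval for how its reads split, which covers counting error only and compares libraries, not conditions. With DMSO, 15 lincRNAs were called higher in 4T1-CM (14.4% of the 104, against 7.92% of the 11010 genes with at least 100 reads off X and Y) and 5 lower (4.81%, against 4.35%). Of the 2368 genes with 100 to 500 reads, where most lincRNAs lie, 15.9% were called higher and 8.23% lower, so the lincRNAs were not above genes of like depth. With CH223191, 19 were called higher (18.3%, against 7.86% of all genes and 15.6% of those with 100 to 500 reads) and 9 lower (8.65%, against 6.14% and 11.0%). The median log2 ratio of the 104 was 0.15 with DMSO and 0.22 with CH223191, against -0.02 and -0.01 for all genes, and turned to -0.12 and -0.057 over the 51 lincRNAs with at least 200 reads. With 1 RNA extract per condition, fewer cells of a type and less RNA per cell cannot be told apart.

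Of the lincRNAs, 12 were called higher in both comparisons, which share no library. That is 11.5% of the 104, against 5.88% of all genes and against 11.1% of the genes with 100 to 500 reads. All of the 12 except Gm36161 had under 100 reads in the normal medium libraries together. They passed the read threshold only with their 4T1-CM reads, so their calls rest in part on that filter. In both comparisons 2 were called lower (1.92%, against 2.81%), and 0 were called in opposite directions (against 0.0545%). The log2 ratios of the 2 comparisons had the same sign for 83 of the 104 (79.8%, against 79.0% of all genes). Across the lincRNAs, Pearson's r was 0.85 and Spearman's rho 0.74 (n = 104), against 0.87 and 0.77 across all genes, and r was 0.76 without AI504432 and Gm34643. Genes are not independent replicates, and the 4 libraries lie behind every point.

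**Figure D2:**
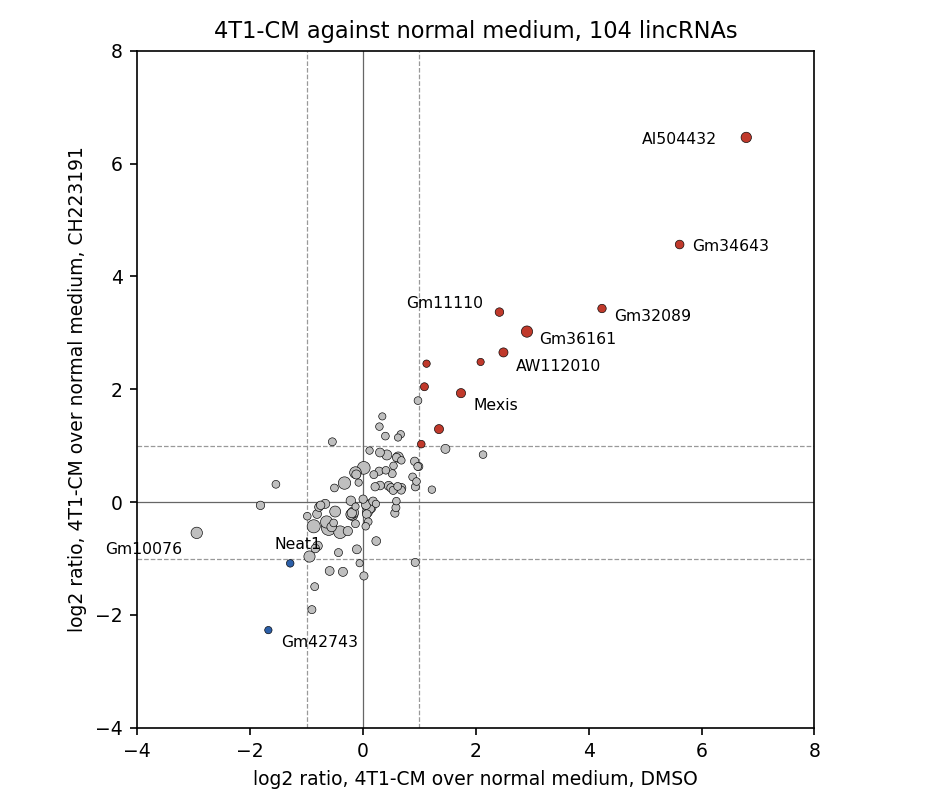
Log2 ratio of 4T1-CM over normal medium with DMSO (horizontal) against that with CH223191 (vertical), 1 point per lincRNA with its size growing with summed reads, and dashed lines at 2-fold. The 12 red points lie past 2-fold higher in both and the 2 blue points past 2-fold lower, and Gm10076 lies far to the left with DMSO (-2.95) but not as low with CH223191 (-0.54), while the positions of AI504432 and Gm34643 depend on the prior count.

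AI504432 (ENSMUSG00000056145, chr3:107039504-107054347, plus strand) stood furthest apart, with 3 and 4 reads in the normal medium libraries and 424 and 404 reads in the 4T1-CM libraries. Its interval ran from 5.45 to 9.29 (log2) with DMSO and from 5.26 to 8.51 with CH223191. It lies 1434 bases from Kcna3 on the same strand, the gene of a voltage-gated potassium channel, which had 1, 0, 196 and 135 reads. Gm34643 (ENSMUSG00000115855, chr14:103012908-103024457, plus strand) had 2, 4, 133 and 108 reads, with intervals from 4.04 to 8.98 and from 3.33 to 6.63. Its nearest protein-coding gene, 22520 bases away on the same strand, is Acod1, the enzyme that makes itaconate in activated macrophages, with 7, 12, 7661 and 4309 reads. Both lincRNAs and both neighbours were near the floor in normal medium (3 reads are 0.171 to 0.189 CPM) and high in both 4T1-CM libraries.

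Gm32089 (ENSMUSG00000114055, chr13:94289448-94295006, minus strand) had 5, 7, 113 and 82 reads, or log2 ratios of 4.24 (3.10 to 6.01) and 3.43 (2.41 to 4.88). Its neighbour Scamp1, 3591 bases away, had 833, 779, 1552 and 1476 reads and was under 2-fold in both. Gm36161 (ENSMUSG00000114608, chr13:120010390-120018931, plus strand) was the most abundant of the 12, with 105, 81, 868 and 676 reads and log2 ratios of 2.91 (2.62 to 3.22) and 3.02 (2.70 to 3.38). The words it shares with Gm21188 and other genes make its reads uncertain.

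AW112010 (ENSMUSG00000075010, chr19:11047617-11050566, minus strand), a transcript known to be induced in activated macrophages, had 21, 22, 132 and 144 reads. Its log2 ratios were 2.49 (1.85 to 3.26) and 2.65 (2.03 to 3.40). Its promoter is the one shown with the kappaB motif. Mexis (ENSMUSG00000086712, chr4:53261356-53270232, minus strand), a lincRNA induced by the sterol-sensing liver X receptors that raises Abca1 expression, had 39, 33, 144 and 130 reads, or 1.74 (1.23 to 2.30) and 1.93 (1.39 to 2.54). Abca1, the cholesterol exporter 101461 bases away on the same strand, had 5825, 6707, 40102 and 43783 reads, or log2 ratios of 2.65 and 2.68. Mexis was among the genes chosen for a higher level in 4T1-CM, and Abca1 was also higher in both 4T1-CM libraries.

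Gm11110 (ENSMUSG00000079414, chr17:57091370-57105942, minus strand) had 18, 8, 108 and 89 reads, or 2.42 (1.72 to 3.26) and 3.37 (2.40 to 4.70). It overlaps Tnfsf9, the ligand of the costimulatory receptor 4-1BB, on the other strand, and Tnfsf9 had 3, 12, 64 and 50 reads. C030037D09Rik (ENSMUSG00000087574, chr11:88718645-88728893, plus strand) had 8, 8, 39 and 48 reads, or 2.08 (1.03 to 3.46) and 2.48 (1.46 to 3.85). It lies 132 bases from Msi2 on the other strand, the gene of an RNA-binding protein, which had 138, 136, 172 and 206 reads and was under 2-fold in both.

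Gdap10 (ENSMUSG00000096954, chr12:32821872-32826904, plus strand) had 38, 48, 107 and 121 reads, or 1.35 (0.81 to 1.93) and 1.29 (0.81 to 1.82). It lies within the span of Nampt on the same strand, the enzyme of nicotinamide salvage, which had 2076, 1906, 4410 and 3953 reads. Gm38910 (ENSMUSG00000107728, chr6:134605234-134607681, minus strand) had 16, 8, 39 and 47 reads, or 1.13 (0.28 to 2.09) and 2.45 (1.43 to 3.82), 1526 bases from Mansc1 with 50, 53, 247 and 203 reads. The last 2 of the 12, named after their values were seen, were Gm20735 (22, 16, 52 and 69 reads) and 5930430L01Rik (22, 18, 50 and 38 reads). In all 12, both 4T1-CM libraries had more reads than either normal medium library, which follows largely from how the 12 were chosen.

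The fibroblast and neutrophil marker sums given above were higher in the same 4T1-CM libraries, as was the sum of the macrophage markers, and their part in these results was not tested. The macrophage sum rested mostly on Lyz2 (189512, 241493, 576935 and 577870 reads). The neutrophil sum rested on Mmp8 (35, 21, 2142 and 759 reads) and S100a8 (99, 190, 560 and 412). Cxcr2 went the other way with 12, 9, 2 and 0 reads, and Ly6g, S100a9 and Retnlg had none. Of the fibroblast markers, Col1a2 had 429, 243, 1117 and 955 reads. Col1a1, Col3a1 and Dcn were also higher in both 4T1-CM libraries, while Lum had 3, 0, 0 and 0 reads.

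The nearest protein-coding genes of 5 of the 12 were themselves called higher in both comparisons (Kcna3, Acod1, Abca1, Tnfsf9 and Mansc1), as were 5.88% of all genes with at least 100 reads. Kcna3, Acod1 and Tnfsf9 reached 100 reads through the 4T1-CM libraries alone, so their calls rest on that filter and support nothing here. Over the 78 lincRNAs with a neighbour of at least 100 reads, Pearson's r between the log2 ratios of lincRNA and neighbour was 0.71 with DMSO and 0.67 with CH223191, and Spearman's rho was 0.36 and 0.32. Without AI504432 and Gm34643 (n = 76), r was 0.38 and 0.33. Pairs whose exons overlap can share reads, and all points share the libraries.

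**Figure D3:**
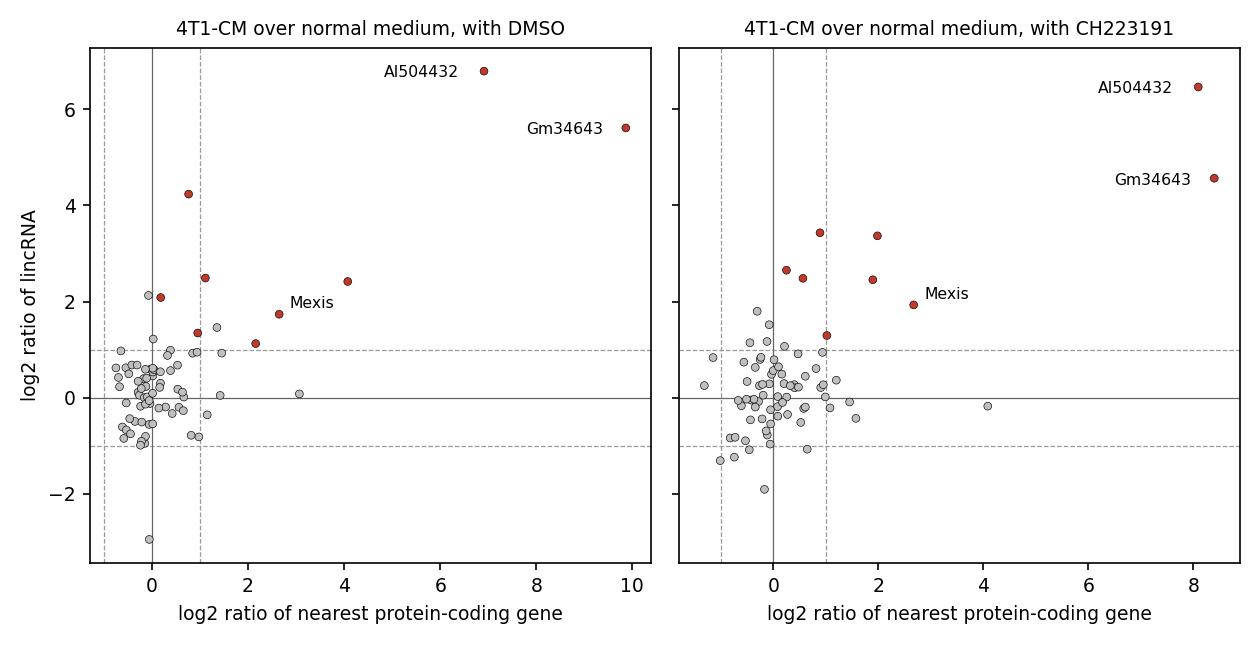
Log2 ratio of 4T1-CM over normal medium of 78 lincRNAs (vertical) against their nearest protein-coding gene (horizontal), with DMSO on the left and CH223191 on the right, and dashed lines at 2-fold. Red marks the lincRNAs called higher in both comparisons, of which AI504432 and Gm34643 lie at the upper right beside Kcna3 and Acod1, while most grey points lie within 2-fold on both axes.

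Lower in both 4T1-CM comparisons were Gm42743 and Gm27194. Gm42743 (ENSMUSG00000050936, chr3:96269721-96279001, plus strand) had 36, 49, 12 and 10 reads, or -1.68 (-2.80 to -0.74) and -2.27 (-3.47 to -1.32). It shares 483 exon bases with Gm20628 and the histone gene Hist2h2bb, which had no reads. How reads in shared bases were counted is not given, so this 0 does not show that Hist2h2bb was silent. Gm27194 (ENSMUSG00000098292, chr11:62749852-62752787, plus strand) had 43, 40, 19 and 19 reads, or -1.29 (-2.17 to -0.50) and -1.08 (-1.98 to -0.28), and shared 50.2% of its words, most with Wsb2-ps. Among the abundant genes, Gm14461 came close to 2-fold lower, at -0.95 (-1.16 to -0.74) and -0.96 (-1.18 to -0.75). Neat1 was lower at -0.61 (-0.65 to -0.56) and -0.46 (-0.49 to -0.43), and Norad at -0.87 (-0.96 to -0.79) and -0.43 (-0.52 to -0.34). Malat1 had 0.11 (0.05 to 0.18) and -0.08 (-0.14 to -0.02), so that its direction turned between the comparisons. In all, 19 lincRNAs had both intervals above 0 (18.3%, against 23.2% of all genes and 19% of those with 100 to 500 reads) and 15 had both below (14.4%, against 26.1% and 12.4%).

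The lists of known lincRNAs held few of the 104. Of 18 snoRNA hosts, 11 had at least 100 reads, and the 4 of these with the biotype lincRNA were among the 104. Snhg6 had 81, 88, 97 and 83 reads, Snhg12 had 55, 107, 56 and 61, and Snhg20 had 93, 112, 89 and 100, none of them at 2-fold in any comparison. Epb41l4aos had 75, 54, 23 and 53 reads, with its low value in 4T1-CM with DMSO. The 8 snoRNP proteins, which bind the snoRNAs that such genes host, had a median log2 ratio of -0.47 with DMSO and -0.81 with CH223191. Of these, 2 and 3 were called lower, against 4.35% and 6.14% of all genes. Gar1, a subunit of the H/ACA class, had 115, 175, 54 and 42 reads, and Fbl, the methyltransferase of the C/D class, 699, 886, 436 and 429. The 12 paraspeckle and speckle proteins had medians of -0.35 and -0.24, with 0 and 1 called lower. The 10 proteins of nonsense-mediated decay, which degrades many snoRNA host transcripts, had medians of -0.18 and 0.12, with 1 and 0 called lower. None of these 3 lists had a gene called higher, against 7.92% and 7.86% of all genes.

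Of 12 miRNA hosts, only Mir142hg was among the 104, since the others had too few reads, lay on X, were not listed, or carried another biotype. It had 35, 70, 21 and 25 reads, lower in either 4T1-CM library than in either normal medium library, with -0.86 (-1.73 to -0.05) with DMSO and -1.50 (-2.24 to -0.84) with CH223191. Further miRNA genes lay inside 4833445I07Rik (miR-191 and miR-425), E130102H24Rik (miR-101a), Snhg20 (miR-6516) and Gm37233 (miR-5103). Of 12 entries for immune response genes, in which Mirt2 stands both as antisense and as misc_RNA, AW112010 and Gm14005 were among the 104. Gm14005, named Morrbid by RefSeq and known to repress Bcl2l11 in myeloid cells, had 26, 43, 46 and 51 reads, and its intervals held 0 in both comparisons (-0.04 to 1.44 and -0.40 to 0.84). Bcl2l11 had 625, 512, 992 and 980 reads. No imprinted or p53-response gene of the lists was among the 104. Of these lists, 3 imprinted genes and Tug1 (3543 reads) had at least 100 reads but carried another biotype.

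The second question was which of the same genes differed with CH223191. In normal medium, 3 lincRNAs were called higher with CH223191 (2.88%, against 1.97% of all genes and 4.56% of those with 100 to 500 reads) and 1 lower (0.962%, against 0.836% and 3.17%). In 4T1-CM, 3 were called higher (2.88%, against 0.609% of all genes and 2.15% of those with 100 to 500 reads) and 1 lower (0.962%, against 0.436% and 1.6%). None was called in both media in the same direction (against 0.163% of all genes higher and 0.0272% lower), and none in opposite directions (against 0.0636%). The log2 ratios in the 2 media had an r of -0.07 and a rho of -0.03 over the 104 genes, against 0.14 and 0.11 over all genes. The 104 genes had a median of 0.08 (log2) in normal medium and one of 0.11 in 4T1-CM, against 0.00 and 0.00 for all genes.

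Neat1 and Malat1 were the 2 lincRNAs whose intervals lay above 0 in both media (1.92%, against 5.37% of all genes and 2.66% of those with 100 to 500 reads), and none had both below 0 (against 4.45% and 0.718%). Neat1 was higher with CH223191 by 0.60 (0.57 to 0.64) in the normal medium pair and by 0.75 (0.71 to 0.79) in the 4T1-CM pair, or 1.52-fold and 1.68-fold. Malat1 was higher by 0.55 (0.49 to 0.61) and 0.36 (0.30 to 0.42), or 1.46-fold and 1.28-fold. These are the deepest of the 104 genes, so counting error is small, but the spread between cultures was not measured. The 12 paraspeckle and speckle proteins had medians of -0.08 and 0.03 in the same comparisons, with none called. Of all genes, 1.97% and 0.609% were called higher there and 0.836% and 0.436% lower. Nono, a paraspeckle protein that binds Neat1, had 2299, 2535, 2227 and 2268 reads, and Sfpq, its partner, 2458, 1748, 1443 and 1300.

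**Figure D4:**
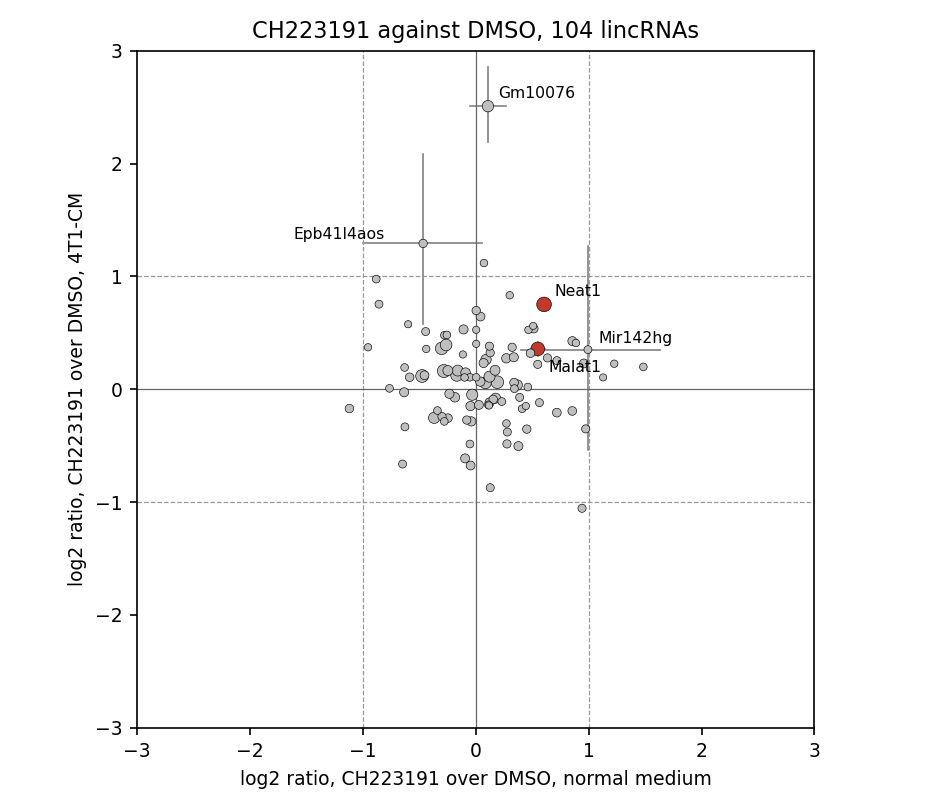
Log2 ratio of CH223191 over DMSO in normal medium (horizontal) against that in 4T1-CM (vertical), 1 point per lincRNA with its size growing with summed reads, and dashed lines at 2-fold. The bars at the 5 named genes are 95% Clopper-Pearson intervals of counting error. Neat1 and Malat1 (red) lie right of and above 0, no point lies past 2-fold on both axes, and Gm10076 stands alone at 2.51 in 4T1-CM.

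The lincRNAs called with CH223191 are named here after their values were seen. In normal medium 1700047M11Rik (9, 26, 45 and 48 reads), Gm15326 (13, 31, 34 and 37) and Gm37168 (19, 42, 20 and 20) were higher and Gm11110 (18, 8, 108 and 89) was lower. In 4T1-CM, Gm10076, Epb41l4aos and Gm46224 (20, 21, 27 and 55) were higher and Gm26532 (29, 56, 61 and 27) was lower. Mir142hg in normal medium lay just under the threshold at 0.99 (0.40 to 1.63), and its ratio in 4T1-CM was 0.35 (-0.54 to 1.27). Snhg12 likewise had 0.96 (0.48 to 1.46) in normal medium against 0.23 (-0.32 to 0.78) in 4T1-CM. Spearman's rho between the log2 ratio in normal medium and gene length was -0.16 over the 104 and -0.27 over all genes.

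The response to 4T1-CM with CH223191 was set against that with DMSO by their difference (CH223191 minus DMSO, log2). It was at least 2-fold for 13 lincRNAs (12.5%, against 4.18% of all genes and 13% of those with 100 to 500 reads). Its counting interval left out 0 for 17 (16.3%, against 38.0% and 18%). Both held for 7 (6.73%, against 3.59% and 10.4%), which are named here after their values were seen. None of these shares was above that of genes of like depth. Gm10076 (ENSMUSG00000060143, chr14:105681828-105682211, plus strand) had the largest, 2.40 (2.04 to 2.78). Its reads were 642, 690, 91 and 483, so that 4T1-CM with DMSO stood apart from the other 3 libraries, at -2.95 (-3.29 to -2.64) against normal medium. RefSeq lists this gene of 384 bases as a pseudogene, and Rpl41, the ribosomal protein gene whose words it shares, had 9820, 16318, 8354 and 6186 reads and no such low value in that library.

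The snoRNA host Epb41l4aos also had its lowest value in the 4T1-CM library with DMSO, with a difference of 1.76 (0.86 to 2.72) and ratios of -1.82 (-2.58 to -1.15) with DMSO and -0.057 (-0.63 to 0.52) with CH223191. Gm47882 (54, 29, 20 and 37 reads) had 1.86, with a lower bound of 0.79, and Gm21781 (44, 24, 33 and 52 reads) 1.61 (0.61 to 2.67). The remaining 3 went the other way. Gm26532, which overlaps Mir24-2, had -2.00 (-3.01 to -1.03), Gm43351 (36, 71, 40 and 29 reads) had -1.32 (-2.31 to -0.37), and 1700047M11Rik had -1.29, with an interval whose upper end touched 0. Among abundant genes with intervals off 0, Oip5os1 had 0.67 (0.50 to 0.83), Dubr 0.66 (0.42 to 0.89), AU020206 0.59 (0.45 to 0.74) and Norad 0.44 (0.32 to 0.57), all under 2-fold. The 12 lincRNAs called higher in both 4T1-CM comparisons all had a difference whose interval held 0, from -4.68 to 1.64 at its widest (Gm34643) and from -0.34 to 0.58 for Gm36161.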

How the data were processed

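RNA-seq libraries of peritoneal macrophages (1 per condition) were deposited by the authors as raw counts, meaning whole numbers of reads, for 54532 genes in a table. HISAT2 2.0.5 and DESeq2 are named in the submitters' processing notes. The counter, its strand setting and the build are not given in the sources used here. Gene spans matched GENCODE M21 of GRCm38 for 53499 of 54409 shared genes and 102 of the 104 lincRNAs. There were 0 sample columns left unused.

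Libraries were scaled by TMM (edgeR 4.0.16, R 4.3.3) over the 13715 genes that reached 10 reads in any library. Log2 ratios used a prior count of 0.5, and calls used these ratios also for the 2 genes with 3 reads or fewer in a library, for which the text gives reads and intervals and no fold. RPKM used the gene length of the table. Python 3.11.15, numpy 2.4.6, pandas 2.3.3, scipy 1.17.1 and matplotlib 3.10.9 did the rest, and the code was tested on simulated data. Promoters, miRNAs and aliases came from RefSeq (GRCm38.p6). With 1 library per condition, no test across genes was made for the main results, and the additive fit named below is an alternative.

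Named were the 10 lincRNAs with the most reads and the 10 with the highest RPKM, up to 10 per direction called in both 4T1-CM comparisons (5 for CH223191), those called in opposite directions, and those on lists of nuclear body, snoRNA host, miRNA host, imprinted, immune response, p53 response, ribosomal RNA and other lincRNAs. Genes outside this rule are marked as named after their values were seen, and neighbours or overlapping genes go with their lincRNA. The genes and lists were chosen with earlier results of these data known. Alternatives were DESeq2 1.42.0 size factors, total counts, TMM over protein-coding genes, other filters, a prior count of 5, other read thresholds, lincRNAs without overlaps or without ribosomal RNA sequence, and an additive edgeR quasi-likelihood fit with a 5% FDR (0.05).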

Additional observations from a re-analysis of the deposited data

How the results depend on the processing

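No paired analysis was possible because the labels give 1 library per condition and no replicate numbers. DESeq2 size factors, TMM over protein-coding genes, no filter on low counts and leaving out the genes with ribosomal RNA sequence kept every count within 1.5 times and every median within its order-statistic interval. The largest shift of the median of all genes under another scaling was 0.0575 (log2), and no called ratio of a named gene changed sign under the alternatives. Counts follow the number of lincRNAs admitted. Except for the additive fit, shares of all genes were not counted under the alternatives that follow. A moved count can therefore not be read as particular to lincRNAs. Where every library had to hold 10 reads or more (97 lincRNAs), 9 were higher in 4T1-CM with DMSO, 6 were higher in both comparisons and 0 were lower with CH223191 in normal medium. The filter removes the 6 others by construction, since each had under 10 reads in normal medium. With at least 200 reads (51 lincRNAs), 9 were higher and 2 lower in 4T1-CM with DMSO, 8 higher and 2 lower with CH223191, and 0 lower in both, with medians of -0.12 and -0.057. At that threshold CH223191 gave 0 higher in normal medium and 0 lower in 4T1-CM. With at least 50 reads (170 lincRNAs), the 4T1-CM counts were 28 higher and 17 lower with DMSO, 29 and 24 with CH223191, and 9 lower in both. CH223191 then gave 10 higher and 6 lower in normal medium, 8 and 7 with 4T1-CM present, and 1 higher in both. Among the 51 lincRNAs overlapping no gene, 7 were higher and 1 lower in 4T1-CM with DMSO, 8 and 2 with CH223191, 4 higher and 0 lower in both, and CH223191 gave 0 lower in either medium. Total counts gave 2 lower with CH223191 in normal medium. A prior count of 5 gave 0 lower with CH223191 in either medium and 1 lower in both 4T1-CM comparisons. With at most 20% shared words (90 lincRNAs, an alternative chosen after seeing the data), 2 were lower in 4T1-CM with DMSO and 1 in both. The additive quasi-likelihood fit of edgeR, which treats the 2 responses as equal and has 1 residual degree of freedom, called 18 lincRNAs higher (17.3%, against 16.4% of 13715 genes) and 14 lower (13.5%, against 16.2%) with 4T1-CM. With CH223191 it called 0 lincRNAs higher and 0 lower, against 0.0729% and 0.00729% of the 13715 genes. Ratios of single genes near 2-fold crossed it for Gm38910 (-1.01 with total counts) and Mir142hg (with TMM over protein-coding genes) under CH223191 in normal medium. With a prior count of 5, Gm11110 came to -0.83 in that comparison, Gm38910 to 0.95 with 4T1-CM and DMSO, and Gm27194 to -0.94 with 4T1-CM and CH223191. The depth allows no fold for genes with 3 reads or fewer, and the intervals do not hold the spread between cultures.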

Other observations

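LincRNAs under the threshold of 100 reads were not part of the comparisons, and a few of them carry familiar names. Mir155hg, the host of miR-155, had 0 reads in both normal medium libraries and 25 and 11 reads in the 4T1-CM libraries with DMSO and with CH223191. Pvt1, a lincRNA beside the Myc gene, had 30, 28, 13 and 17 reads, and Mirt1 had 17, 20, 4 and 2. Ptgs2os2 had 3, 5, 16 and 2 reads, so that 1 library held most of them. A330074K22Rik, just under the threshold with 97 reads, had 7, 2, 53 and 35.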
